A study of Mus musculus with 16 samples.

Results

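Cytokine, chemokine and receptor genes were taken from the arrays by name: a probe was a member if its annotated symbol began with Il, Ccl, Ccr, Cxcl, Cxcr, Tnfsf, Tnfrsf or Tgfb followed by a digit. Of 20794 probes, 12771 carried a gene symbol and 93 matched. They stood for 79 of the 9030 genes named on the array, 11 of them with more than 1 probe, and comprised 49 ligand probes, 38 receptor probes and 6 probes of regulators (Il1rn, Il18bp and Il4i1). The name rule uses no values, but it was chosen with earlier results of these data known.

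Interleukins, chemokines and the TNF and TGF-beta families are secreted or membrane-bound messengers that immune and stromal cells use to direct survival, growth, differentiation and movement. Each acts on cells that carry its receptor, and many receptors share a signalling chain. In the spleen, chemokines sort B cells and T cells into follicles and T zones and attract monocytes, and in the thymus interleukins and chemokines support and guide developing T cells.

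The mice carried a mutation of EMP3, a membrane protein related to PMP22, and the kind of allele is not given in the labels. Spleen and thymus RNA of 4 male mutants aged 17 weeks was hybridised on two-colour arrays against RNA of the same organ pooled from wild-type males of that age. The channel labels list 4 mice in the pool and the labelling protocol gives 6. Each mutant mouse was run on 2 arrays per organ with exchanged dyes, 16 arrays in all, and the same mutants gave both organs. The pool is a single control sample, so the test of a ratio against 0 leaves out the spread between wild-type mice. The values are ratios without intensities, so neither the level of a gene nor the identity of the organs by their markers could be checked. In whole organs, fewer cells of a type and less RNA per cell cannot be told apart.

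Values were read as log2 ratios of mutant over pool. This direction is the likely one from the design text, and the log base and direction are not stated in the labels; should the pool be the numerator instead, higher and lower change places throughout. The centring is not stated either, and array medians lay between -0.02 and 0.09. Arrays with the mutant in Cy3 were taken as already turned to match the others. Between a mouse's 2 arrays the correlation over all probes was 0.0518 to 0.424 in spleen and -0.922 to -0.249 in thymus, so the orientation is not settled in thymus. With the Cy3 arrays turned, 0 of 92 members and 1 of 20127 probes passed the spleen test. Thymus mouse 2 was left out because 83.5% of the probes on its 2 arrays were mirror images within 0.01. Arrays held values for 20046 to 20639 probes and for 90 to 93 members.

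In spleen, 30 of 92 members tested passed an adjusted p of 0.05 in limma (Benjamini-Hochberg over all probes), 10 higher and 20 lower in the mutants. The share was 32.6%, against 25.3% of all probes tested. Higher members made up 10.9%, against 13.4% of all probes, and lower members 21.7%, against 11.9%. The largest decreases were in Tgfb1, both Ccr2 probes, 1 of 2 Il6st probes and Cxcr5, each between 1.64-fold and 1.86-fold. The largest increases were in Tnfrsf13c at 1.68-fold (3 mice, with an opposing array in the mouse left out) and Il15ra at 1.46-fold. Each of the 30 probes had 1 sign in every mouse with a value from both arrays, and 24 of them had it on all 8 arrays (80% of called members, against 64.6% of the called probes over the whole array). The median over members was -0.01, against 0.04 over all probes. The count moved with single mice: without mouse 2, 15 members passed (0 higher) and 12.1% of all probes, and without mouse 4, 16 passed (1 higher) and 12.2% of all probes. Without mouse 3, 21 passed (3 higher) and 19.5% of all probes. The spread of the pool mice was not measured. With 4 pool mice taken to vary as the mutants did, and this added to the error, 12 members passed (1 higher), against 8.39% of all probes.

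The lower share of the members moved with the position of the probes. Probes with IDs above 20246, which lie in stretches of alphabetical order of symbol, were called lower in 59% of cases and higher in 6.99%, with a median of -0.48. Of 29 members there, 11 were called lower and 2 higher (median -0.27). Among the other 63 members, 9 were lower (14.3%) and 8 higher (12.7%), against 10.6% and 13.5% of all probes with IDs of 20246 or below. Up to that ID 27% of members were called, against 24.2% of all probes: 7 of 32 ligand probes (21.9%) and 10 of 25 receptor probes (40%). Above it 9 of 17 ligand and 4 of 12 receptor probes were called (52.9% and 33.3%, against 66% of all probes). After subtraction of the running median of neighbouring IDs, the fit called 31 members (33.7%, against 19.1% of all probes). Of these, 13 were higher (14.1%, against 7.67% of all probes) and 18 lower (19.6%, against 11.5%). They hold 20 of the members called before and 11 further ones. Lower among the 11 were Tnfrsf25, Tgfb1 probe 5630 and Ccr6. Higher than their neighbours were Ccl6, Ccl4, Il12rb1, Il13, Il2ra, Il2rb probe 20326, Il5ra and Il7r. All but Ccl6 lie above ID 20246, where the running median at these probes was negative. Before its removal, Il2rb probe 20326 read -0.03, Il13 0.005, Il12rb1 0.06 and Il2ra 0.16. Il5ra read 0.26, Ccl6 0.26, Il7r 0.28 and Ccl4 0.31, and none of these had passed. The calls lost are named below, with values for some members.

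**Figure D1:**
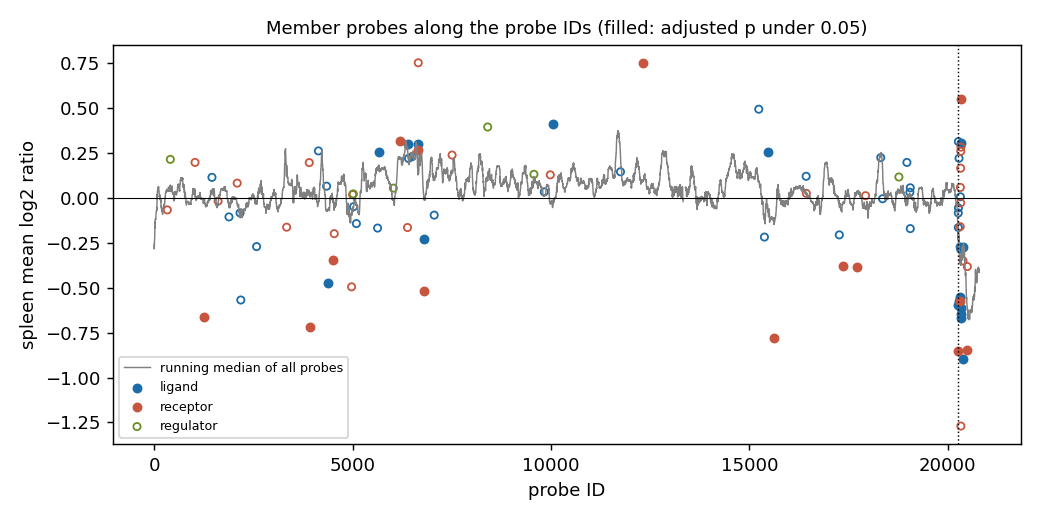
Mean spleen log2 ratio of each member probe (points; blue ligands, red receptors, green regulators) against probe ID, with the running median of all probes over neighbouring IDs in grey. Filled points passed an adjusted p of 0.05, the dotted line stands at ID 20246, and the lowest open point is Il6ra, measured in 1 mouse at -1.27 and not tested. Of the 20 lower members, 11 lie right of the line.

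Among the ligands, 16 of 49 probes passed in spleen (32.7%, against 25.3% of all probes; median -0.06). Of these, 6 were higher (12.2%, against 13.4% of all probes) and 10 lower (20.4%, against 11.9%). Without mouse 2, 3 or 4 the number was 6, 9 or 6 (13%, 18.8% and 13%, against 12.1%, 19.5% and 12.2% of all probes), so there the ligands were near the share of the array. Interleukin ligands supplied 3 of the higher and 5 of the lower calls among 15 probes, CXC chemokines 1 and 2 of 8, TGF-beta 1 and 1 of 4, CC chemokines 1 and 1 of 17, and TNF ligands 0 and 1 of 5. These family counts rest on few probes each.

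Tgfb1, a cytokine that restrains immune activation and drives matrix production, had the lowest ligand ratio. Its probe 20380 read -0.57, -1.10, -0.76 and -1.15 in mice 1 to 4, a mean of -0.90 ± 0.28 (SD, n = 4; adjusted p = 0.00502). All 4 mice were below 0, with mice 2 and 4 lowest. The running median at this probe was -0.32, and with it removed the ratio was -0.58 (adjusted p = 0.018). The other Tgfb1 probe, 5630, was negative in all 4 mice at a smaller size and did not pass (-0.17 ± 0.08, adjusted p = 0.105), but did with its running median of 0.16 removed (-0.32, adjusted p = 0.0281). Tgfb3, a further TGF-beta isoform, was higher at 0.21, 0.52, 0.49 and 0.42 in the 4 mice, a mean of 0.41 ± 0.14 (n = 4; adjusted p = 0.0138), with mouse 1 the least raised. Tgfb2 read 0.06 ± 0.16 and did not pass, so the 3 isoforms had 3 different outcomes.

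Il18, an interleukin made by macrophages that stimulates interferon production, was lower at -0.57, -0.85, -0.71 and -0.55 (mean -0.67 ± 0.14, n = 4; adjusted p = 0.00413). Its mice lay close together and none came near 0. Il7, a survival factor for lymphocytes made by stromal cells, read -0.44, -0.89, -0.67 and -0.57 (mean -0.65 ± 0.19; adjusted p = 0.00574). Il2, the T cell growth factor, read -0.24, -0.86, -0.53 and -0.82 (mean -0.61 ± 0.28; adjusted p = 0.0145). For both, mouse 1 was the least lowered and mouse 2 the most. The running median at these 3 probes was -0.37, and with it removed the sizes fell by more than a factor of 2. Il18 then read -0.31 and Il7 -0.27 (adjusted p = 0.0234 and 0.0486), and Il2 at -0.25 did not pass (adjusted p = 0.129).

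The remaining lower ligands were spread over the families. Ccl20, which attracts cells bearing Ccr6, read -0.60 ± 0.26, Cxcl9, an interferon-induced attractant of T cells, -0.57 ± 0.19, and Il11, a cytokine that signals through Il6st, -0.55 ± 0.20 (n = 4 each; adjusted p = 0.0125, 0.00769 and 0.00952). Tnfsf11, the osteoclast and lymphoid-tissue factor known as RANKL, read -0.28 ± 0.12 (adjusted p = 0.0376). Tnfsf11 lay where the running median was -0.27, and with that removed it read -0.03 and did not pass (adjusted p = 0.832). Il11 likewise lost its call (running median -0.33; -0.21 after removal, adjusted p = 0.0903), while Ccl20 and Cxcl9 kept theirs at -0.40 and -0.32 (running medians -0.17 and -0.27; adjusted p = 0.0398 and 0.0321). Cxcl12, which retains blood precursors and lymphocytes in their niches, was lower at 1 of its 3 probes: probe 4382 read -0.70, -0.58 and -0.56 in mice 1 to 3 and -0.05 in mouse 4 (mean -0.47 ± 0.29; adjusted p = 0.0316). Mouse 4 stood apart there, and the other Cxcl12 probes were positive at 0.11 ± 0.14 and 0.22 ± 0.20 and did not pass.

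The higher ligands moved by less than the lower ones named first. Il6, an inflammatory cytokine of many cell types, read 0.22, 0.29, 0.49 and 0.21 (mean 0.30 ± 0.13; adjusted p = 0.0305), while the running median at its ID was -0.37; with that removed it read 0.67 (adjusted p = 0.00626). Il24, a relative of Il10, read 0.20, 0.32, 0.27 and 0.40 (mean 0.30 ± 0.09; adjusted p = 0.0218), and Cxcl14, a chemokine of epithelia and stroma, read 0.23, 0.52, 0.17 and 0.27 at probe 6653 (mean 0.30 ± 0.15; adjusted p = 0.0411). No mouse was below 0 for any of these 3 ligands. The second Cxcl14 probe read 0.20 ± 0.10 and did not pass (adjusted p = 0.0797). Ccl5, an attractant of T cells and monocytes, was higher by 0.25 ± 0.03 (adjusted p = 0.027), the smallest spread between mice among the called members. Il16, a chemoattractant of CD4+ cells, had probes called in opposite directions: 5659 read 0.25 ± 0.11, 6790 read -0.23 ± 0.06, and the remaining one, 4345, read 0.06 ± 0.16 (adjusted p = 0.0435, 0.0402 and 0.59), so no direction can be given for the gene.

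**Figure D2:**
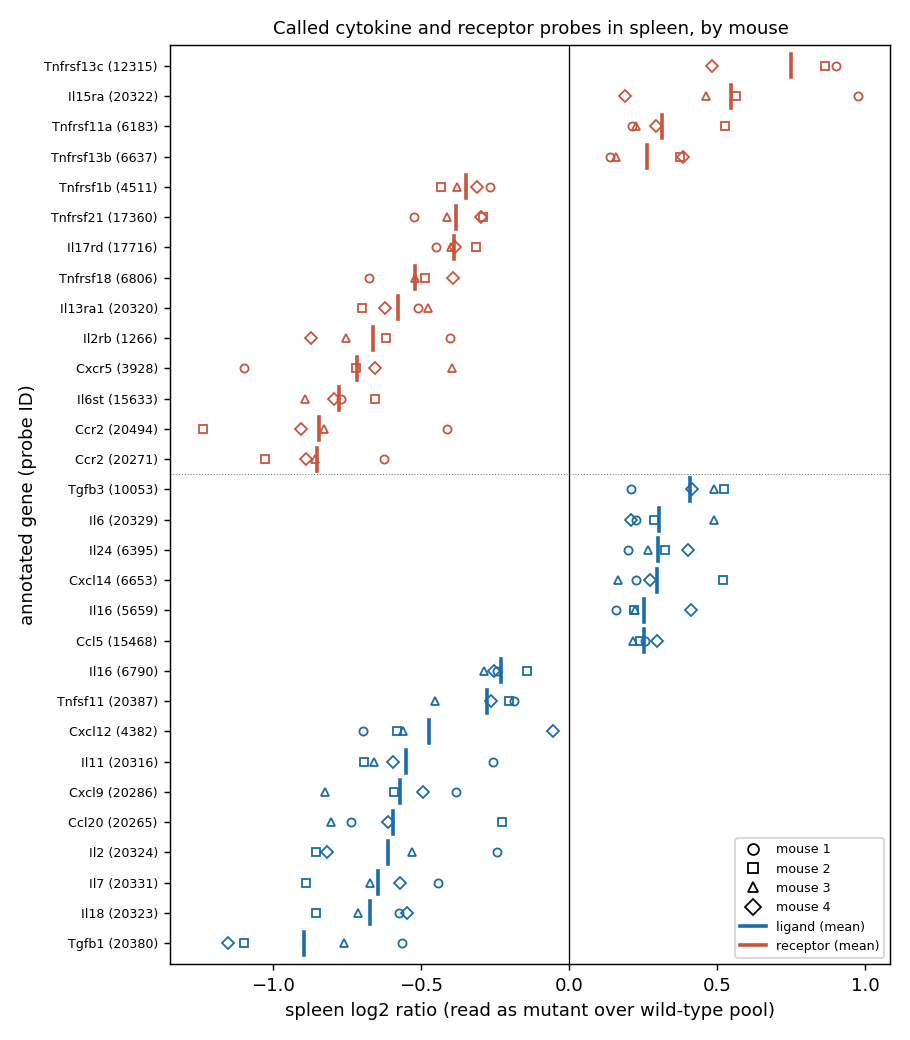
Spleen log2 ratio of the 30 called member probes, 1 row per probe, with a symbol for each of the 4 mice (mean of 2 dye-exchanged arrays) and a bar at the mean (blue ligands, red receptors). The means run from -0.90 for Tgfb1 to 0.75 for Tnfrsf13c, and no probe has mice on both sides of 0.

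Of 37 receptor probes tested, 14 passed (37.8%, against 25.3% of all probes; median -0.03). Of these, 4 were higher (10.8%, against 13.4% of all probes) and 10 lower (27%, against 11.9%). Without mouse 2, 9 passed (25%, against 12.1% of all probes). Interleukin receptors gave 1 higher and 4 lower calls among 17 probes, TNF receptors 3 and 3 of 14, CC chemokine receptors 0 and 2 of 5, and the single CXC receptor, Cxcr5, was lower. Here too each family holds few probes.

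Ccr2, the receptor that lets inflammatory monocytes leave the marrow and follow Ccl2-type chemokines, was lower at both of its probes. Probe 20271 read -0.62, -1.03, -0.86 and -0.89 in mice 1 to 4 (mean -0.85 ± 0.17, 1.80-fold; adjusted p = 0.00401) and probe 20494 read -0.41, -1.24, -0.83 and -0.91 (mean -0.85 ± 0.34; adjusted p = 0.00818). At both probes mouse 1 was the least and mouse 2 the most lowered. The running median was -0.17 at the first probe and -0.61 at the second, and with it removed the first kept its call at -0.65 (adjusted p = 0.00666) while the second, at -0.23, did not pass (adjusted p = 0.209). Of its ligands on the array, Ccl7 read -0.06 ± 0.09 and Ccl12 -0.01 ± 0.16, and neither passed.

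Il6st, the signalling chain shared by Il6, Il11 and their relatives, read -0.77, -0.66, -0.89 and -0.79 at probe 15633 (mean -0.78 ± 0.10, 1.71-fold; adjusted p = 0.00401). The 4 mice lay within a narrow range. The other Il6st probe, 2092, did not pass and had the opposite sign (0.08 ± 0.06; adjusted p = 0.371), so the decrease rests on 1 probe. Cxcr5, which guides B cells and follicular T cells into follicles, read -1.10, -0.72, -0.39 and -0.66 (mean -0.72 ± 0.29; adjusted p = 0.00942), with mouse 1 lowest and mouse 3 least lowered.

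Il2rb, the chain shared by the receptors for Il2 and Il15, was lower at probe 1266 (-0.40, -0.62, -0.76 and -0.87, mean -0.66 ± 0.20, adjusted p = 0.00594). It read -0.03 ± 0.11 at probe 20326, which did not pass and lay where the running median was -0.37. With the running median removed, probe 20326 was called higher (0.34, adjusted p = 0.0368). Probe 1266 stayed lower (-0.625, adjusted p = 0.0118), so the 2 probes were then called in opposite directions. Il13ra1, a chain of the Il13 receptor that also serves Il4, read -0.58 ± 0.10 (adjusted p = 0.00425). Its running median was -0.37, and it did not pass with that removed. Il17rd, a receptor-like regulator of growth factor signalling, read -0.39 ± 0.05 (adjusted p = 0.00809). Among TNF receptors, Tnfrsf18 (GITR, prominent on regulatory T cells) read -0.52 ± 0.12, Tnfrsf21 (a death-domain receptor) -0.38 ± 0.11 and Tnfrsf1b (a receptor for TNF on leukocytes) -0.35 ± 0.07, with adjusted p = 0.00577, 0.0127 and 0.0127. These 3 probes lay where the running median was between -0.03 and 0.01.

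The 4 higher receptors were Tnfrsf13c, Il15ra, Tnfrsf11a and Tnfrsf13b. Tnfrsf13c, the BAFF receptor that keeps mature B cells alive, read 0.90, 0.86 and 0.48 in mice 1, 2 and 4 at probe 12315 (mean 0.75 ± 0.23, n = 3; adjusted p = 0.0106). Mouse 3 was dropped there because its Cy3 array had no value, and its Cy5 array read -1.50, against the direction of the call. In the other mice the Cy5 arrays read 1.52, 1.62 and 0.79 and the Cy3 arrays 0.28, 0.10 and 0.17, and neither dye alone passed (adjusted p = 0.444 and 0.26). Its second probe, 4538, was negative in all 4 mice and did not pass (-0.20 ± 0.09; adjusted p = 0.0749), so the probes disagree in sign. Il15ra, which presents Il15 to neighbouring cells, read 0.98, 0.56, 0.46 and 0.19 (mean 0.55 ± 0.33; adjusted p = 0.0278). Its arrays differed by dye, with a mean of 1.04 with the mutant in Cy5 and 0.06 with it in Cy3. The running median there was -0.37, and with it removed Il15ra read 0.90 (adjusted p = 0.00624). Tnfrsf11a, the receptor RANK, read 0.21, 0.53, 0.23 and 0.29 at probe 6183 (mean 0.32 ± 0.15; adjusted p = 0.0316) and 0.13 ± 0.07 at a second probe that did not pass. Tnfrsf13b, the receptor TACI on B cells, read 0.14, 0.38, 0.16 and 0.39 (mean 0.26 ± 0.13; adjusted p = 0.0476). At Tnfrsf11a and Il24 the running median was 0.22, at Tnfrsf13b 0.17, at Il16 probe 5659 0.17 and at Cxcl14 0.13, and all 5 lost their call with it removed. They make up 5 of the 10 higher members.

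Several members did not pass and had mice far apart. Ccr7, the receptor that brings T cells and dendritic cells into T zones, read 1.83 in mouse 1 and 0.23 to 0.51 in the others (mean 0.75 ± 0.73; adjusted p = 0.0872). Ccl27a ranged from -1.41 in mouse 4 to 1.18 in mouse 1, Ccl8 from -1.43 in mouse 4 to 0.40 in mouse 1, and Tnfrsf1a read -1.40 in mouse 3 and -0.22 to -0.15 in the other mice. The 6 regulator probes gave 0 calls by limma, and 0 of them had an unadjusted p under 0.05. Their means lay between 0.02 and 0.39 (median 0.12), and with the running median removed 0 were called as well.

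Of the 11 genes with more than 1 probe, 7 had means of 1 sign and 4 (Cxcl12, Il16, Il6st and Tnfrsf13c) had means of both signs. At least 1 probe was called in 9 of the genes. In 7 of these a single probe was called, and in 2 a pair was: Ccr2 in the same direction and Il16 in opposite ones. The files do not say which part of a transcript a probe reads.

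**Figure D3:**
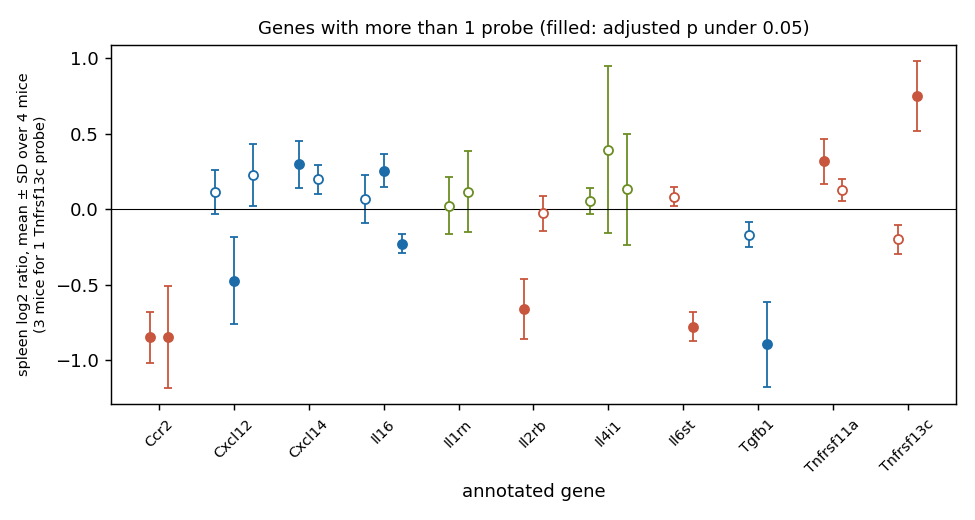
Spleen log2 ratio of every probe of the 11 member genes with more than 1 probe, as mean ± SD over 4 mice (3 for 1 Tnfrsf13c probe), filled where the adjusted p was under 0.05. The Ccr2 probes coincide at -0.85, while the Il6st probes stand at -0.78 and 0.08.

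The medians of ligands and receptors lay close together. The median ligand ratio minus the median receptor ratio was -0.03, 0.06, 0.02 and 0.00 in spleens of mice 1 to 4, a mean of 0.01 ± 0.04 (n = 4). In thymus it was 0.05, 0.01 and -0.02 in mice 1, 3 and 4, a mean of 0.01 ± 0.04 (n = 3). In both organs the difference was smaller than its spread over mice. Ligands and their own receptors were also set side by side. Il2 (-0.61) and its chain Il2rb (-0.66 at probe 1266) were both lower, while the second Il2rb probe (-0.03) did not pass. With the running median removed, Il2 did not pass and that second probe was called higher (0.34). Il6st, lower at probe 15633 (-0.78) and not called at the other (0.08), serves both Il11, which was lower (-0.55), and Il6, which was higher (0.30). Il18, Il7 and Ccl20 were lower, while Il18r1 (0.02), Il7r (0.28) and Ccr6 (-0.17) did not pass. With the running median removed, Il7r was called higher (0.66) and Ccr6 lower (-0.44), with limma adjusted p = 0.0324 and 0.0139. Tnfsf11 was lower and Tnfrsf11a higher at 1 of 2 probes. Il11, Tnfsf11 and Tnfrsf11a lost their calls with the running median removed.

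Promoter windows were searched for cores of 2 factor families that cytokine signals act through, and for the TATA box. RefSeq (GRCm38.p6) held promoters for 60 of the 79 genes, 75 windows of 250 bases before a start. The STAT core TTCNNNGAA, which reads the same on both strands, was present in 9 of 75 (12%), against 7.02% of 32851 windows of all genes. It stood in 2 of 19 windows of lower members, 1 of 10 of higher members and 6 of 49 of members with no call; the Il16 windows count as both lower and higher. The AP1 core TGANTCA, equally the same on both strands, was in 13.3% of member windows against 6.75% of all (3 of 10 of higher, 2 of 19 of lower and 6 of 49 of uncalled members). The TATA box letters TATAAA, read on the gene's strand, were likewise in 12% of member windows against 7.59% of all. Shown are the called members whose window holds the STAT core, with the core in capitals, and Ccr2, lower at both probes, whose window holds none. Cxcl14 is at chr13:56296693-56296772 (minus strand, core 191 bases before the start), Tnfrsf18 at chr4:156026193-156026272 (plus strand, 99 bases before), Tnfrsf1b at chr4:145247002-145247081 (minus strand, 181 bases before) and Ccr2 at chr9:124102103-124102182 (plus strand).
Cxcl14: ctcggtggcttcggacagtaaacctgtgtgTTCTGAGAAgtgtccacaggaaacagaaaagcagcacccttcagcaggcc
Tnfrsf18: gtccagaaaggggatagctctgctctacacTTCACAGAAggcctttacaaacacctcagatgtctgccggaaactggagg
Tnfrsf1b: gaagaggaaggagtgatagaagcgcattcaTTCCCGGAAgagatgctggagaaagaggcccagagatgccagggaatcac
Ccr2: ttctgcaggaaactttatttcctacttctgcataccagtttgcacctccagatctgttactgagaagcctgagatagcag
The higher gene Cxcl14 and the lower genes Tnfrsf18 and Tnfrsf1b thus hold the same 9-base pattern with different inner letters. These matches are letters in a window and describe no binding.

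In thymus, 0 of 92 members passed, against 0% of 20130 probes by limma. At an unadjusted p under 0.05 there were 3 members and 725 probes, and every other fit tried also called 0 members. The members spread over an SD of 0.06 in thymus and 0.36 in spleen, against 0.08 and 0.30 for all probes. The 2 thymus arrays of a mouse were negatively correlated (-0.44, -0.357 and -0.249 in mice 1, 3 and 4). Averaging opposed values brings the thymus means and their spread towards 0, so small thymus ratios need not mean an unchanged organ. Tgfb1 probe 20380 had the smallest p: it read -0.12, -0.21 and -0.30 in mice 1, 3 and 4 (mean -0.21 ± 0.09, n = 3; limma adjusted p = 0.866). Il7 read -0.12, -0.18 and -0.16 (mean -0.16 ± 0.03), Il2rb probe 1266 -0.12 ± 0.06 and Tnfrsf1b -0.10 ± 0.03. These 4 probes were negative in every thymus, as they were in every spleen, at smaller sizes and in the orientation taken here. On the positive side, Tnfrsf19 (a TNF receptor relative) read 0.21 ± 0.25, Cxcr5 0.10 ± 0.05, Il4i1 probe 6028 0.08 ± 0.04 and Tnfrsf13c probe 4538 0.07 ± 0.03. None of the 8 passed, each with a limma adjusted p of 0.866.

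The difference between the organs was tested directly in a joint limma fit. That fit took 1 variance per probe for both organs, although the median SD between mice was 0.154 in spleen and 0.0855 in thymus. What this did to the p values was not tested. The thymus means in it are also drawn towards 0 by opposed arrays, as said above. The difference passed for 20 of 92 members (21.7%, against 13.9% of all probes), 10 ligand and 10 receptor probes. Spleen was above thymus for 3, Tnfrsf13c, Tgfb3 and Ccl5 (5.91% of all probes), and below it for 17 (8.04% of all probes). The smallest p values were those of Il6st probe 15633 (-0.71 ± 0.09 SE, adjusted p = 0.00494), Ccr2 probe 20271 (-0.77 ± 0.10, 0.0056), Tnfrsf13c probe 12315 (0.78 ± 0.13, 0.0109), Il17rd (-0.39 ± 0.07, 0.0119), Il18 (-0.60 ± 0.11, 0.0119), Cxcr5 (-0.82 ± 0.15, 0.0121), Il13ra1 (-0.49 ± 0.09, 0.0138) and Tnfrsf18 (-0.46 ± 0.09, 0.0139). With the running median removed, 12 members passed (13%, against 10.3% of all probes). Of these 8 differences, 6 then kept their call. Il18 (-0.28) and Il13ra1 (-0.17) did not pass (limma adjusted p = 0.0606 and 0.221). For Cxcr5 every spleen was below 0 and every thymus mean above it, at 0.06 to 0.15. That thymus sign rested on the Cy5 arrays (mean 0.198), while the Cy3 arrays had a mean of 0.001 and were below 0 in mice 3 and 4. Since the same mice gave both organs, a paired fit with the mouse as replicate block, over mice 1, 3 and 4, was also made: it called 2 of 88 members, Il6st (-0.75) and Ccr2 probe 20271 (-0.71), each with a limma adjusted p of 0.0449, and 3.1% of all probes. Without mouse 3 or without mouse 4 the joint fit called 0 members (and 10 of 19692 and 0 of 19350 probes), and without mouse 2 it called 13 (14.8%, against 10.5% of all probes).

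**Figure D4:**
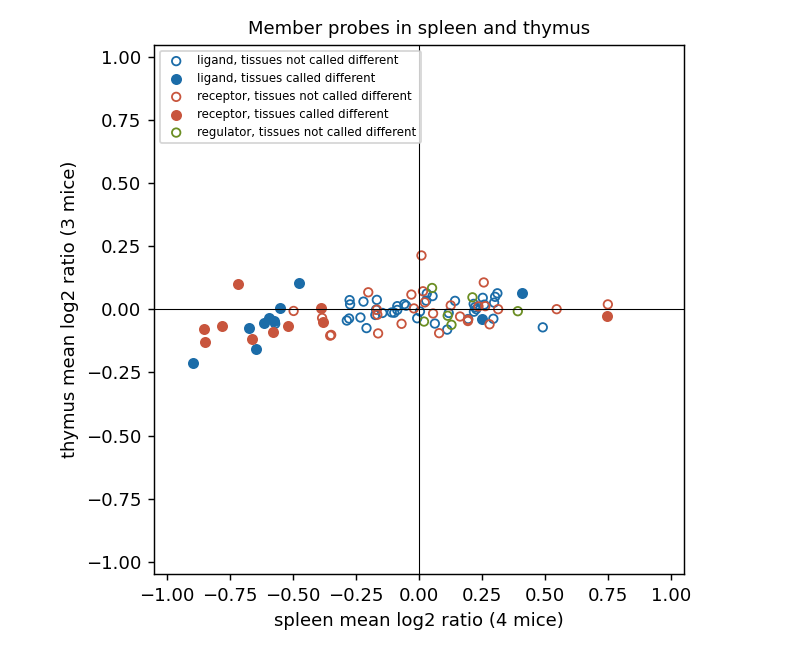
Mean thymus log2 ratio (vertical, 3 mice) against mean spleen log2 ratio (horizontal, 4 mice) for each member tested in both organs; filled points are the 20 whose organs differed at an adjusted p of 0.05. Spleen means run from -0.90 to 0.75 and thymus means from -0.21 to 0.21.

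Relatives that the name pattern leaves out were counted in the same fit. Of 46 such genes listed, 23 were on the array with 29 probes, and 3 were higher and 6 lower in spleen (31%, against 25.3% of all probes). Of the 9 calls, 5 lay at IDs above 20246, all lower: Csf3, Csf2, both called Fas probes and the lower Ltb probe. In that stretch most probes of the array were called lower, and the values below are without removal of the running median. The growth factors Csf3 (-0.85 ± 0.07) and Csf2 (-0.76 ± 0.25), the death ligand Fasl (-0.80 ± 0.16 at probe 14) and its receptor Fas (-0.78 ± 0.05 at probe 20543 and -0.46 ± 0.20 at probe 20386) were lower. The remaining Fas probe read 0.06 ± 0.16 and a second Fasl probe -0.12 ± 0.12, and neither passed. The scavenging receptor Ackr1 was higher (0.51 ± 0.21), as was Ccrl2 (0.24 ± 0.06). Ltb, a lymphotoxin chain, was called higher at one probe (0.46 ± 0.09) and lower at another (-0.32 ± 0.17).

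Downstream signalling genes gave 8 higher and 7 lower calls among 58 probes tested of 37 genes, out of 51 listed (25.9%, against 25.3% of all probes), close to the share of the array. Of the 15 calls, 4 lay at IDs above 20246: Tnfaip3, which was higher, and both called Smad6 probes and the lower Myd88 probe. The values below are likewise without removal of the running median. Smad6, an inhibitor of the TGF-beta superfamily, was lower at -0.86 ± 0.13 and -0.31 ± 0.13 at its 2 called probes. Ikbkb, the kinase that activates NF-kappaB, was higher at 2 probes (0.50 ± 0.07 and 0.38 ± 0.05), and another with a wide spread (0.66 ± 0.75) did not pass. Relb, an NF-kappaB subunit, was lower (-0.48 ± 0.12), Tnfaip3, an NF-kappaB inhibitor, higher (0.48 ± 0.13), and Myd88, the adaptor of Il1 and Il18 receptors, was called in both directions at its probes (-0.56 ± 0.17 and 0.31 ± 0.11).

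Markers of the cells that carry these genes were called in spleen as follows, against 25.3% of all probes. B cell markers gave 0 calls in 4 probes by limma (1 at an unadjusted p under 0.05), with medians of 0.01 to 0.17 over mice. T cell markers gave 2 higher (Lat, Cd2) and 1 lower (Cd5, at an ID above 20246) in 9 probes (33.3%), with mouse medians from -0.15 to 0.27. Macrophage markers gave 1 higher (C1qc, 0.63 ± 0.11) and 2 lower (Tyrobp, -0.52 ± 0.10, and C1qb, -0.42 ± 0.05) in 8 (37.5%), with mouse medians from -0.23 to 0.01. Neutrophil markers gave 1 higher and 3 lower in 14 (28.6%), with medians from -0.10 to 0.11. Erythroid markers gave 2 lower in 8 (25%, medians -0.24 to 0.24), and stromal markers 3 lower in 12 (25%, medians -0.23 to -0.18). The stromal calls were Thbs1, at an ID above 20246, and Col1a2 probes 19601 and 19514. Further Col1a2 probes read 0.03 and 0.02 and did not pass. The thymocyte marker Dntt read -0.24 ± 0.25 in spleen and did not pass. In thymus limma called 0 probes of any of these lists. The part of cell composition in the changes of Cxcr5, Tnfrsf13c, Ccr2, Il7 and Cxcl12 was not tested.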

How the data were processed

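The deposited values are log ratios, read as log2. RNA (20 µg) was reverse transcribed and coupled to Cy3 or Cy5, per the labels' protocols. The sources used here name no scanner, background correction or normalization. Values over 10 in size, a constant repeated on 25 to 137 probes of an array, were set to missing. The 2 arrays of a mouse, both required, were averaged to 1 replicate, and at least 3 mice were required. Each organ was fitted alone with limma 3.58.1 in R 4.3.3 (lmFit, eBayes), with Benjamini-Hochberg adjustment over all probes at 0.05, because the median SD between mice was 0.154 in spleen and 0.0855 in thymus. The difference came from a joint fit with 1 variance per probe for both organs. Depth is unknown, and the number of mice and arrays limits the precision.

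The mouse numbers pair the organs since each animal gave both. Correlations of a mouse's deviations from the organ means were -0.046, -0.01 and -0.086 for mice 1, 3 and 4. On simulated data with log2 changes of 0.5 and 1, each in 100 probes, the spleen fit found 44 and 82 of them, the thymus fit 51 and 86, and the joint fit 34 and 83 differences. Of the calls of these fits, 6.67%, 2.14% and 7.87% were false. The simulation changed far fewer probes than the 25.3% called in spleen. It held no spread of the pool and no shift by probe position, so these shares need not hold for the real fits.

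Named were called spleen members with 1 sign in all mice (at most 12 per role and direction, values by mouse for the largest 4), the 4 thymus members with the smallest p in each direction, the 8 differences with the smallest p, and the other probes of these genes; further members were named after their values were seen. Members, lists and tests were chosen with earlier results of these data known. Gene names come from the platform annotation, and all 93 members matched RefSeq. Alternatives are given with the limits.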

Additional observations from a re-analysis of the deposited data

Results flagged for a closer look

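In spleen, 1 mouse stood far from the other 3 at 6 of the 88 member probes measured in 4 mice; chance sets a sample apart in this way in about 1 of 20 groups. Mouse 3 read 1.22 at Il4i1 probe 8405, on arrays of 2.24 (Cy5) and 0.19 (Cy3), and -1.40 at Tnfrsf1a, on arrays of -2.85 (Cy5) and 0.06 (Cy3), so that both rest on 1 array. Mouse 3 also read -0.25 at Ccl12, mouse 1 read -0.72 at Ccl21a and 0.96 at Cxcl10, and mouse 4 read 0.36 at Tnfrsf4. None of the 6 probes was called.

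The organs differed, by a test of the difference itself in the joint limma fit, for 20 member probes (21.7%, against 13.9% of all probes). That fit takes no account of each mouse giving both organs: the paired fit with mouse as replicate block called 2 of these, Il6st and Ccr2 probe 20271, and the joint fit without mouse 3 or without mouse 4 called 0. With the running median removed, the joint fit called 12 members (13%, against 10.3% of all probes), and Il18 and Il13ra1 did not pass. Spleen was below thymus on the log2 scale for Cxcr5 (-0.82), Ccr2 (-0.77 at probe 20271 and -0.72 at probe 20494), Il6st (-0.71 at probe 15633), Tgfb1 (-0.68 at probe 20380), Il18 (-0.60), Cxcl12 (-0.58 at probe 4382), Ccl20 (-0.56), Il2 (-0.56), Il11 (-0.56), Il2rb (-0.54 at probe 1266), Cxcl9 (-0.53), Il7 (-0.49), Il13ra1 (-0.49), Tnfrsf18 (-0.46), Il17rd (-0.39) and Tnfrsf21 (-0.33). Spleen was above thymus for Tnfrsf13c (0.78 at probe 12315), Tgfb3 (0.35) and Ccl5 (0.29).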

How the results depend on the processing

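Of the 30 spleen calls, 4 (Ccr2 probe 20271, Il18, Il6st probe 15633 and Tgfb1 probe 20380) kept their call under each of 10 alternatives, which leave out the turned Cy3 arrays and the single dyes; with the running median removed Il18 and Tgfb1 shrank to -0.31 and -0.58.

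With the Cy3 arrays turned, 0 members were called in spleen in either direction (0 ligand and 0 receptor probes) and 0 for the difference. The thymus ligand minus receptor median was then -0.048, and these ratios reversed: Cxcl14 (-0.046), Ccl5 (-0.056), Tgfb1 (0.057), Il7 (0.21), Ccl20 (0.21), Tnfsf11 (0.06), Il16 probe 6790 (0.15), Cxcr5 (0.02), Il13ra1 (0.24) and the Il13ra1 difference (0.074). With a variance of 4 pool mice added, taken as that of the mutants, 12 members were called (8.39% of all probes). Of these, 1 was higher and 11 lower, as 4 ligand and 8 receptor probes, and 2 members were called for the difference. A test against 1.2-fold called 5 (0 higher, 5 lower; 2 ligand, 3 receptor; 5.43%, against 4.41% of all probes). With both organs fitted together, 20 were higher and 25 ligand probes were called (37.9% of all probes). With the running median removed, 12 differences were called (13%, against 10.3% of all probes). The spleen fit then called 31 members, of which 20 were among the 30 (33.7%, against 19.1% of all probes). Cy5 arrays alone gave 6 higher and a thymus ligand minus receptor median of -0.028; Cy3 arrays alone gave 18 calls (2 higher; 8 ligand; 15.1% of all probes) and medians of 0.066 in spleen and 0.054 in thymus. The paired fit with mouse as replicate block called 2 differences. A split by probe ID, chosen after seeing the data, gave 17 calls at IDs of 20246 or below (9 lower; 7 ligand, 10 receptor) and 13 above (2 higher, 11 lower; 9 ligand, 4 receptor).

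Leaving out a mouse gave 15 to 32 spleen calls (15 without mouse 2, 16 without mouse 4), 0 to 12 higher, 6 to 18 ligand probes, 9 to 14 receptor probes and 0 to 16 differences (0 without mouse 3 and 0 without mouse 4). The cause of these changes was not tested. Thymus stayed at 0 in every alternative run.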
